A study of Mus musculus with 11 samples.

Results

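The axoneme and intraflagellar transport (IFT) genes described here are 43 of the 20389 rows of a single-cell transcript count table from adult mouse testis. They were chosen by name alone: symbols beginning with Dnah, Dnaic, Dnali, Rsph, Tekt or Cfap, symbols of Ift followed by a digit, and Ccdc39, Ccdc40, Spag6, Spag16 and Spag17. Of the 43 genes, 30 encode parts of the axoneme and 13 encode IFT proteins. The table uses older symbols, so that dynein heavy chains appear as Dnahc and 12 of the genes now carry another name. The row called Spag6 lies on chromosome 16 and is the gene now named Spag6l. No row begins with Cfap, and 34 rows under older symbols of genes now named Cfap fell outside the rule.

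Cells came from the testes of 3 adult mice with a Dazl-GFP reporter, in which a green fluorescent protein marks cells that express the germ cell gene Dazl. Live GFP-positive cells were sorted singly into plate wells and sequenced by SORT-seq, which counts the 3′ ends of polyadenylated transcripts with unique molecular identifiers (UMIs), so that a transcript gives 1 count whatever its length. Mouse 1 gave 768 wells in 8 CEL-Seq version 1 libraries, mouse 2 gave 384 wells in 1 version 2 library, and mouse 3 gave 768 wells in 2 version 2 libraries, of which 1 was sorted by a gate and the other by index sorting. There was no treatment and no second genotype. The replicate is the mouse (n = 3), and all comparisons are between stages of spermatogenesis within the same 3 mice.

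The axoneme is the microtubule core of the sperm flagellum. Outer and inner dynein arms on its doublet microtubules drive sliding, radial spokes and the central apparatus control the beat, tektins strengthen the doublet wall, and Ccdc39 with Ccdc40 forms the ruler that sets the spacing of the inner arms and spokes. IFT carries parts along the growing flagellum, with the IFT-B complex moving toward the tip and the IFT-A complex returning. The flagellum itself is built in spermatids after meiosis, whereas the cells sorted here are spermatogonia and meiotic spermatocytes.

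Of 1920 wells, 1448 held at least 1000 UMIs, and 1440 were kept after 8 wells with at least 0.5% of UMIs from elongating spermatid markers were left out. Clustering on genes of the odd-numbered autosomes other than those described here placed 1256 wells in 13 ordered stages, and 184 wells fell in 3 low-depth clusters outside the order. Stages 2 and 3 carried differentiating spermatogonia markers, stage 4 preleptotene markers, stages 6 to 9 leptotene and zygotene markers, and stages 10 to 13 pachytene markers. Stage 1 was led by Upp1, a marker of undifferentiated spermatogonia, but fell short of the naming rule. Stage 5 held the highest share of preleptotene markers (0.330% of UMIs) and stays unnamed, because the Sertoli cell marker Cst12 was among its leading genes and Sertoli markers made up 0.0487% ± 0.0224 of its UMIs (SD, n = 3), against 0.0120% at stage 4 and 0.00808% at stage 6. The order of the last stages depended on the staging genes. With stages from the even-numbered autosomes, a cluster led by Ccdc7, as stage 13 is here, stood at stage 11 of 13. That cluster had the round spermatid marker Spaca3 among its leading genes and stayed unnamed. A cluster led by Mst1, as stage 12 is here, came last. Peaks at stage 13 and the step from stage 12 to 13 rest on the order used here. Counts were summed per mouse and stage into 39 sums of 100022 to 3864066 UMIs. The mouse is a block in the tests below, so their p-values measure how far differences between stages vary from mouse to mouse. Differences in level between mice are taken out. Because the stages were set from other genes of the same cells, the p-values give no independent evidence for the order of stages.

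Rsph3a and Rsph3b went against the other genes in their split by mouse. In mice 1, 2 and 3, Rsph3a gave 8013, 18 and 60 UMIs, and Rsph3b gave 7915, 7 and 20. Mouse 1 thus held 99.04% and 99.66% of their UMIs, against 41.29% of all UMIs, and also 81.21% of those of Dnahc7a and 78.59% of those of Dnahc7b. The levels of Rsph3a and Rsph3b followed each other over the 768 wells of mouse 1 (Pearson r = 0.9951, over wells of the same libraries), and 58.42% of the 30-base words in the last 500 bases of Rsph3a occur in Rsph3b. Dnahc7a and Dnahc7b share fewer such words, 31.85% and 20.2%, with Dnah7c, the gene closest to each by this measure. Counts of these 4 genes, called the 4 copies below, are therefore uncertain. Mouse and library protocol cannot be told apart here, and counts per cell and shares of all 43 genes include the 4 copies unless stated.

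All 43 genes together rose from about 0.1% of UMIs in spermatogonia to about 1% in the last pachytene stage. Their share of all UMIs in mice 1, 2 and 3 was 0.1033%, 0.1% and 0.1473% at stage 1, and 1.0938%, 0.9738% and 0.9938% at stage 13. The ranges of the mice do not overlap, and every mouse was higher at stage 13 than any mouse at stage 1. The summed share over stages 8, 9 and 10 averaged 0.2496% ± 0.0392, 0.508% ± 0.0841 and 0.785% ± 0.0788 (SD, n = 3). The steepest part of the curve thus lies where leptotene and zygotene markers give way to pachytene markers. Without the 4 copies, the other genes together went from 0.1130% ± 0.0293 to 0.9206% ± 0.0776. The 26 other axoneme genes started from 0.0329% ± 0.0116 and averaged 0.0852% ± 0.0223, 0.2155% ± 0.0267 and 0.5951% ± 0.0644 at stages 8, 9 and 13. The 13 IFT genes started higher, at 0.0800% ± 0.0181, reached 0.2418% ± 0.0274 at stage 9 and 0.3424% ± 0.0118 at stage 11, and stood at 0.3255% ± 0.0234 at stage 13.

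**Figure D1:**
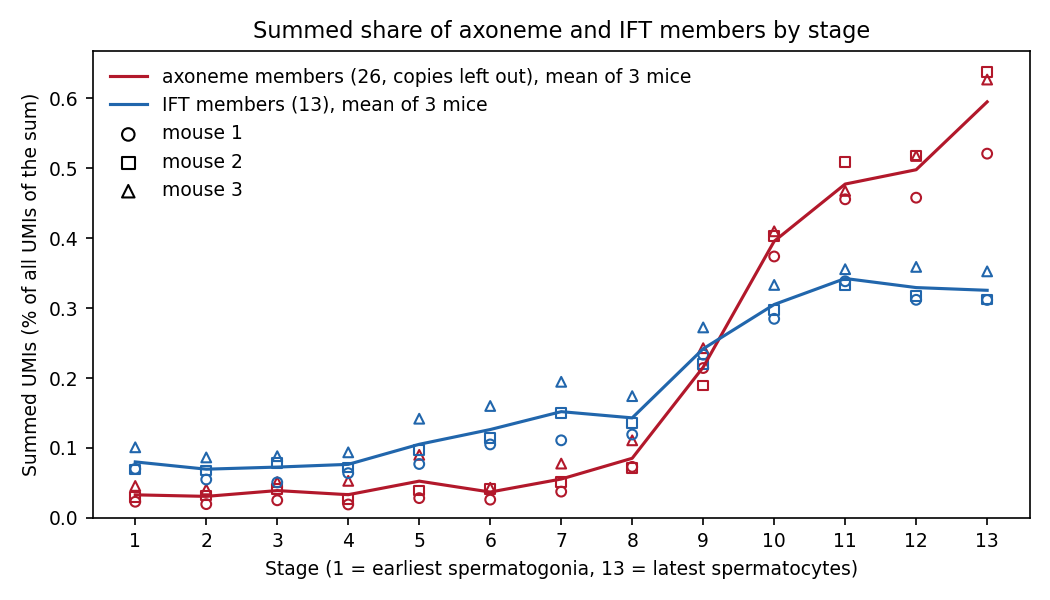
Share of UMIs (percent) from the axoneme genes without the 4 copies and from the IFT genes, by stage (x axis, 1 to 13). There is 1 point per mouse, with lines through the means of 3 mice. The axoneme share averages 0.0329% at stage 1 and 0.5951% at stage 13, and the IFT share 0.0800% and 0.3255%.

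Cells differ in RNA content, and counts per cell did not follow the share over the early stages. The 43 genes gave 35.2 ± 12.3 UMIs per cell at the first stage, 14.5, 29.0, 109 and 427 at stages 6, 8, 9 and 10, and 1026 ± 326 at the last (SD, n = 3). From stage 1 to stage 6 the count per cell went down while the share went from 0.117% to 0.1735%. Median UMIs of all genes per cell moved as well, with 26937.5, 5719, 17111 and 103774 at stages 1, 7, 9 and 13. Depth therefore moves with stage, and its part in the levels below was not tested. The genes also made up 0.466% of UMIs in wells below 1000 UMIs, which is above their share at stages 1 to 8 and below that at stage 9. Whether free RNA contributes to the levels of the early stages was not tested. Markers of multiciliated cells (8 genes in the table), another source of axonemal transcripts, made up 0.00670% of UMIs at stage 1 and 0.00436% at stage 13. In UMIs pooled over mice and scaled to a common total (CPM), Gmnc was at 0 and 0.491 at stages 1 and 13, Mcidas at 13.5 and 11.8, Sec14l3 at 1.81 and 5.40, Cdhr3 at 0.903 and 0, Krt8 at 0.452 and 13.01, Krt18 at 4.07 and 0, Epcam at 33.4 and 14.2, and Pax8 at 4.97 and 0.123. Krt8, Sec14l3 and Gmnc were higher at stage 13, and the other 5 were lower. Levels of genes given below are CPM per mouse after TMM scaling. Round spermatid markers made up 0.00165% of UMIs at stage 1, 0.00127% at stage 12 and 0.00521% ± 0.0047 at stage 13 (SD, n = 3). Elongating spermatid markers made up 0.00408%, 0.0037% and 0.00831% ± 0.00375 at these stages. Their part in the rise was not tested.

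The latest stage was compared with the earliest by edgeR's quasi-likelihood test with the mouse as a block and Benjamini-Hochberg adjustment over 11443 genes. Of the 43 genes, 37 passed the filter on low counts. All 37 rose between stage 1 and stage 13, while 0 fell, also by DESeq2 and by unadjusted p. Among 10208 other genes not used for staging, 37.0% rose and 39.2% fell. Each of the 37 was higher at stage 13 in 3 of 3 mice, and the share of other genes with this is not given here. In mice 2 and 3 this rests on few counts for Rsph3a (18 and 60 UMIs over all stages) and Rsph3b (7 and 20). The median log2 fold change was 3.48 for the 37 genes and -0.06 for the other genes. In the F test for any difference among the 13 stages, all 37 passed, as did 96.1% of the other genes. The 6 genes that did not pass the filter are Dnahc11 with 28 UMIs over the whole series, Dnahc5 with 31, Dnahc9 with 45, Tekt5 with 75, Rsph4a with 95 and Dnaic2 with 112. Since a gene low in spermatogonia could pass through its pachytene counts alone, the count of 37 is not a count over all members.

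**Figure D2:**
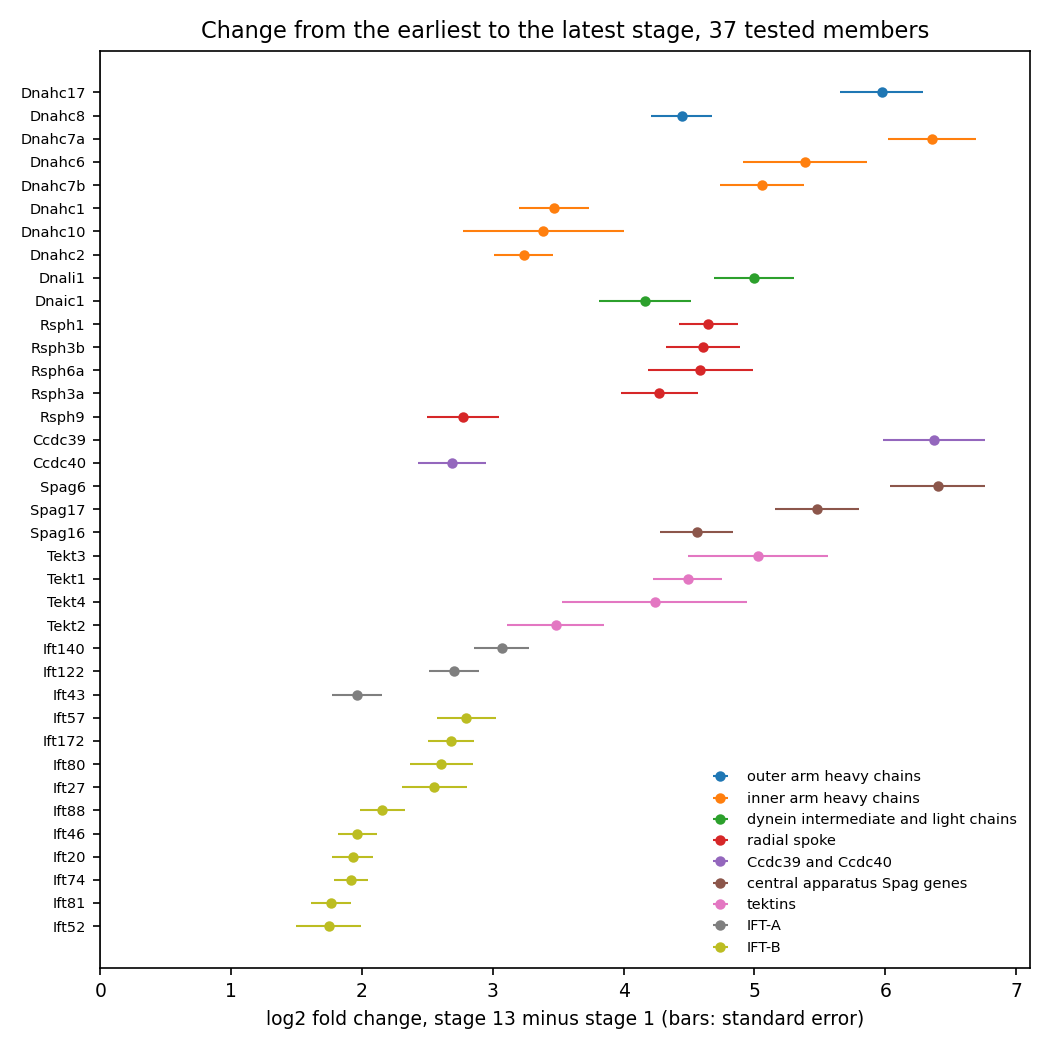
log2 fold change of stage 13 against stage 1 (x axis, with standard error bars) for the 37 axoneme and IFT genes tested, grouped by role. All 37 values are above 0, with a median of 3.48.

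Rises against stage 1 accumulated in steps. At stage 2, 1 gene was called higher, against 14.1% of the other genes, and 4 were called lower, against 13.6%. The number higher at stages 3, 4, 5 and 6 was 2, 3, 14 and 7, against 18.2%, 19.1%, 22.1% and 18.4% of the other genes. At stages 7 and 8 it was 18 and 18, against 23.7% and 28.0%, and at stages 9 to 12 it was 29, 35, 37 and 36, against 31.9%, 34.9%, 35.4% and 35.7%. From stage 9 onward most of the 37 genes were called. At stages 3 to 8 some genes stood below stage 1: 2, 4, 1, 4, 3 and 4 of them, beside 19.7%, 21.3%, 28.3%, 29.1%, 29.6% and 32.0% of the other genes, and at stages 9 to 12 none did, beside 35.8%, 38.0%, 39.1% and 38.7%. The genes called lower at any of stages 2 to 8 are Dnahc2, Rsph9, Ccdc40, Ift140, Ift43, Ift172, Ift27, Ift46, Ift74 and Ift81. The gene missing at stage 12 is Dnahc10, with an adjusted p of 0.0907. Steps between neighbouring stages place most of the change at 2 points: 26 genes rose from stage 8 to stage 9 (16.9% of other genes; median log2 change 1.07 against 0.01), and 23 rose from stage 9 to stage 10 (13.1%; 0.90 against 0.04). An earlier and smaller step lies between stages 4 and 5, where 9 genes rose (13.4%): Dnahc8, Rsph3a, Rsph3b, Rsph6a, Spag6, Ift122, Ift74, Ift81 and Ift88. This step rests on stage 5, where Sertoli markers were also higher, and their part in it was not tested. At the last step, from stage 12 to 13, 7 genes rose (3.87% of other genes), and 4 rose from stage 7 to 8 (9.76%). The remaining steps with a call hold 2 genes from stage 2 to 3 (5.19%), 1 from stage 5 to 6 (2.62%), 1 from stage 6 to 7 (6.88%) and 4 from stage 10 to 11 (2.29%), which are Dnahc10, Dnahc17, Spag16 and Tekt3. None was called from stage 3 to 4 (1.71% of other genes; 0 by unadjusted p) or from stage 11 to 12 (0.0098%; 1 by unadjusted p). From stage 2 on no gene was called lower at any step by edgeR, with 0 to 3 genes per step by unadjusted p. The other genes called lower at these 11 steps came to 7.45%, 1.11%, 16.8%, 2.99%, 6.08%, 5.78%, 15.2%, 11.1%, 1.41%, 0.0% and 1.23%.

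The stage of onset of each gene was also read without a test, as the first stage whose mean CPM over the mice reached 50% of the highest stage mean. This half-maximum stage was computed for the 40 genes with at least 50 UMIs. Its median was stage 10 over all mice and stage 10 in each mouse alone. Stages 9, 10, 11, 12 and 13 held the half-maximum of 10, 11, 7, 2 and 5 genes, and stages 1 to 7 that of the other 5, which are Rsph4a, Ift52, Ift81, Ift74 and Ift20. In 30 of the 40 genes the highest mean was at stage 13. Among the 3777 other genes called higher at stage 13, the median half-maximum stage was 7 with quartiles at 3 and 10. For the 37 axoneme and IFT genes called higher, the median was 10 with quartiles at 9 and 11. The other genes were not matched for size of rise, and a gene that rises little reaches 50% of its peak early. Of the other genes, 12.26% had their half-maximum at stage 1. These quartiles therefore do not compare onset at an equal size of rise. The half-maximum stage was the same in the 3 mice for 18 of the 40 genes and within 1 stage for 28, and it lay at least 3 stages apart for 5. These are Tekt5 (stages 3, 11 and 12 in mice 1, 2 and 3), Dnahc10 (13, 8 and 13), Ift52 (6, 2 and 6), Ift74 (9, 9 and 6) and Rsph3a (9, 6 and 8).

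**Figure D3:**
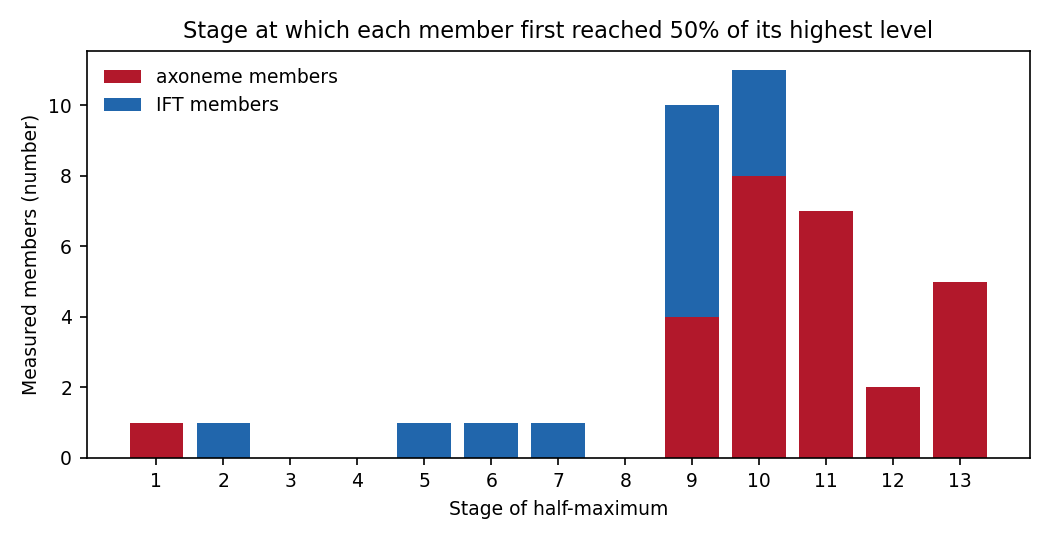
Number of genes (y axis) by half-maximum stage (x axis, 1 to 13) for the 40 genes with at least 50 UMIs, with stacked bars for axoneme (red) and IFT (blue) genes. Of the 40 genes, 35 lie at stages 9 to 13, and 4 of the other 5 are IFT genes.

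**Figure D4:**
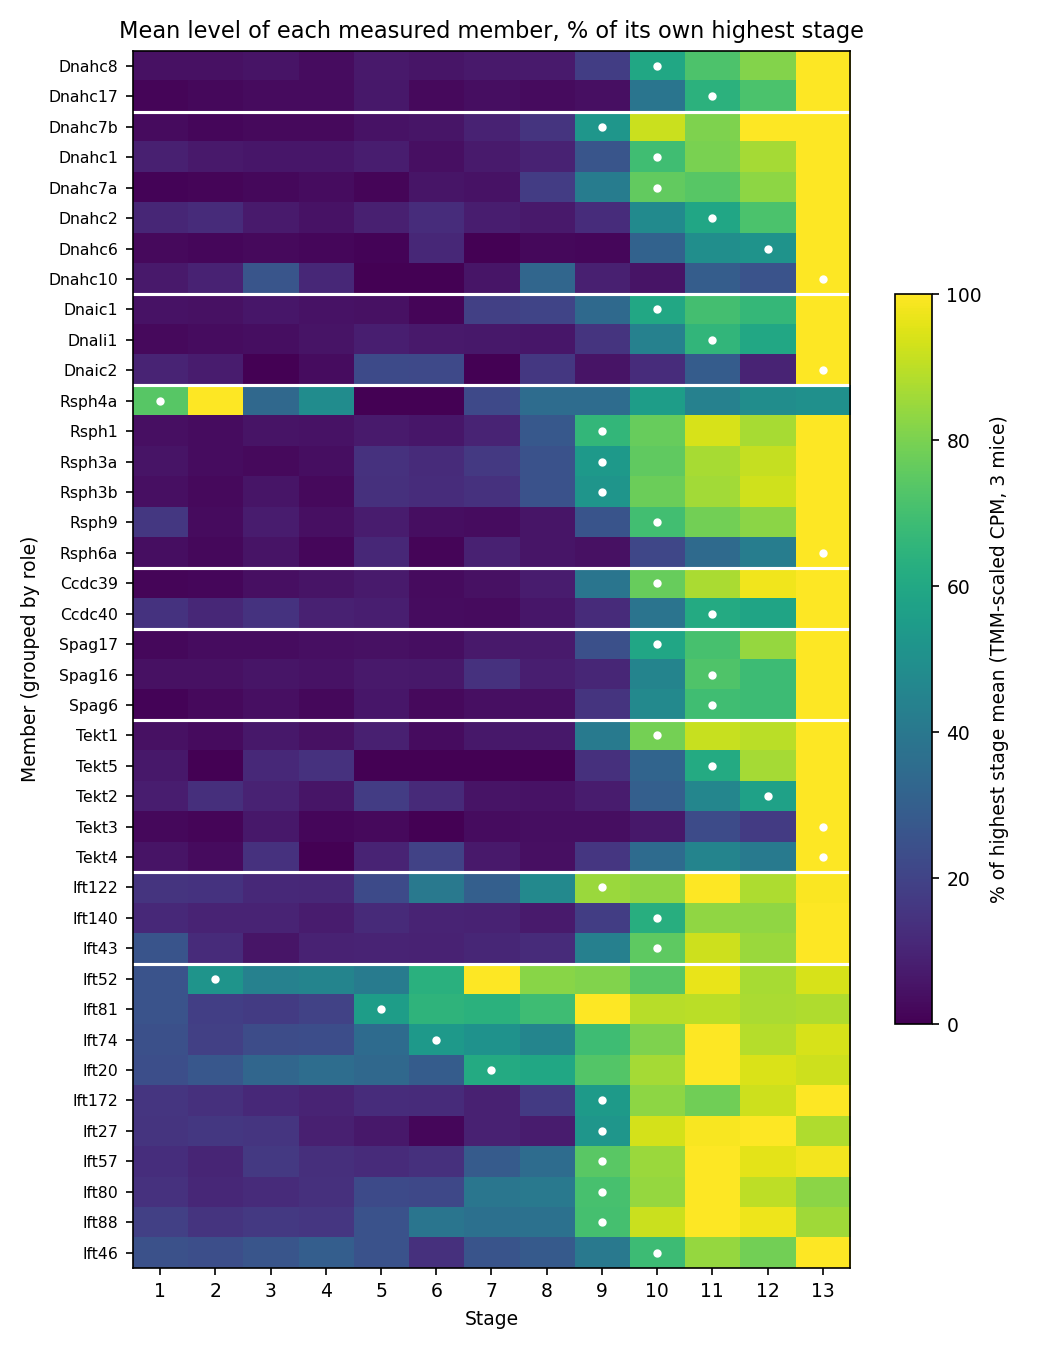
Mean CPM over 3 mice of each gene at each stage (x axis, 1 to 13), as percent of that gene's highest stage mean, with genes grouped by role (white lines) and the half-maximum stage marked by a dot. Apart from Rsph4a, the axoneme genes have their dots at stages 9 to 13, and the dots of Ift52, Ift81, Ift74 and Ift20 lie at stages 2 to 7.

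The roles differed in how far their summed level stood from its peak at stage 1. Mean CPM was summed over the genes of a role with at least 50 UMIs, so abundant genes weigh most. The sum stood at 3.69% of its own peak for the outer arm heavy chains and 5.4% for the inner arm heavy chains. It stood at 4.66% for the radial spoke genes, 2.17% for the Spag genes and 4.72% for the tektins. The sum of the IFT-A genes stood at 15.04% and that of the IFT-B genes at 21.22%. Median log2 changes from stage 1 to stage 13 were 5.21 for 2 outer arm heavy chains and 5.48 for 3 Spag genes. They were 2.70 for 3 IFT-A and 2.06 for 10 IFT-B genes. These changes are not independent of the percentages above, since both set stage 1 against late stages. Median half-maximum stages were 9 for IFT-B and radial spoke genes, 10 for IFT-A, and 12 for the tektins. No test of the difference between roles was run.

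Of the 5 outer arm heavy chains, the sperm-type pair was abundant and the 3 known from motile cilia were nearly undetected. Dnahc8 (Dnah8, chr17:30624354-30877365 in GRCm38) stood at 56.9, 48.3 and 68.3 CPM in mice 1, 2 and 3 at stage 1 and at 1023, 1526 and 1368 CPM at stage 13. All stage 13 values lie above all stage 1 values, with a log2 fold change of 4.44 ± 0.23 (edgeR adjusted p = 4.18e-20). Here and below, ± after a log2 fold change is the SE from the edgeR fit (n = 3 mice). Its mean over stages 8, 9 and 10 was 94.1, 239 and 779 CPM, and both steps were called. Dnahc17 (Dnah17, chr11:118021723-118130634), the other heavy chain of sperm outer arms, went from 3.48, 2.54 and 10.9 CPM to 319, 421 and 500 CPM, a log2 fold change of 5.97 ± 0.31 (edgeR adjusted p = 5.11e-20). This value was 6.67 without mouse 3 and 5.18 with stages from the even-numbered autosomes. Its half-maximum came after that of Dnahc8: the step from stage 8 to 9 was not called, that from 9 to 10 was (3.12 on the log2 scale), and the half-maximum was at stage 11 in every mouse. Dnahc5, Dnahc9 and Dnahc11, the heavy chains of airway and other motile cilia, had 28 to 45 UMIs in the whole series.

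All 6 inner arm heavy chains rose. Dnahc1 (Dnah1, chr14:31260375-31323896) went from 9.29, 17.8 and 41.9 CPM to 199, 251 and 329 CPM, with no overlap between stages and a log2 fold change of 3.47 ± 0.27 (4.09 without mouse 3). Dnahc6 (Dnah6, chr6:73017606-73221651) was nearly absent at stage 1, at 0, 2.54 and 2.73 CPM, and reached 85.0, 69.1 and 70.8 CPM at stage 13 (5.38 ± 0.47; edgeR adjusted p = 4.41e-13). Its largest step was from stage 9 to 10, at 4.23 on the log2 scale. Its fold change depends on which libraries are used: 4.69 without mouse 1, 6.31 without mouse 3 and 6.37 without the gate-sorted library. Dnahc10 (Dnah10), which pairs with Dnahc2 in the double-headed inner arm, appeared late, at 4.05, 5.09 and 4.48 CPM at stage 12 and 15.9, 16.9 and 20.04 CPM at stage 13. Its level at stage 1 was 0, 0 and 3.64 CPM, so its log2 fold change of 3.39 ± 0.62 (edgeR adjusted p = 6.81e-06) rests on few early counts. It did not pass the filter without mouse 1, without mouse 3 or without the gate-sorted library. Dnahc2 rose by 3.24 ± 0.22 on the log2 scale, with a half-maximum at stage 11. The copies Dnahc7a (5.81, 0 and 0.91 CPM at stage 1) and Dnahc7b (13.9, 5.09 and 4.55 CPM) reached 489, 95.8 and 70.1 CPM and 556, 166 and 99.6 CPM at stage 13. Mouse 1 was highest for both at both stages, and without mouse 1 their log2 fold changes were 6.60 and 4.64.

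Among the dynein intermediate and light chains, Dnaic1 and Dnali1 rose and Dnaic2 was too low to test. Dnaic1 (Dnai1, an outer arm intermediate chain; chr4:41569775-41638158) went from 6.97, 2.54 and 10.9 CPM to 122, 158 and 149 CPM, a log2 fold change of 4.17 ± 0.35. Dnali1, a light chain of inner arms, went from 4.65, 0 and 12.7 CPM to 174, 251 and 276 CPM (4.995 ± 0.31; edgeR adjusted p = 5.1e-18; 5.87 without mouse 3). For both, the mice do not overlap between the 2 stages. Dnaic2, the partner of Dnaic1 in the outer arm, was at 0, 0 and 3.64 CPM at stage 1 and at 6.42, 19.7 and 10.99 CPM at stage 13.

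Rsph1 (chr17:31255019-31277383), a radial spoke head protein, was the most abundant gene of the whole set, with 41783 UMIs. It stood at 37.2, 83.9 and 113 CPM at stage 1, at 187, 136 and 241 CPM at stage 7 and at 547, 411 and 621 CPM at stage 8. It then reached 1279, 1253 and 1285 CPM at stage 9 and 1318, 2011 and 2425 CPM at stage 13. The mice are close together at stage 9 and spread apart afterwards, with mouse 1 lowest. The change from stage 1 to 13 was 4.65 ± 0.22 on the log2 scale (edgeR adjusted p = 5.1e-21). Rsph1 was also 1 of the 4 genes that rose from stage 7 to 8, where 9.76% of other genes rose; the others were Dnahc7a, Rsph3b and Ift122. Rsph6a (chr7:19054690-19074447), the spoke head protein known from sperm, was later and lower. It went from 1.16, 2.54 and 10.01 CPM to 91.8, 113 and 170 CPM (4.59 ± 0.40; edgeR adjusted p = 1.76e-13), with its half-maximum at stage 13. Rsph4a, its counterpart in motile cilia, was at 6.97, 0 and 2.73 CPM at stage 1 and at 2.45, 2.82 and 1.29 CPM at stage 13, with overlapping mice, and did not pass the filter.

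Rsph9 was the only tested spoke gene called lower than stage 1 at any stage. It fell by 2.37 on the log2 scale from stage 1 to stage 2, was below stage 1 at stages 2, 4, 7 and 8, and then rose by 2.24 from stage 8 to 9. Rsph3a went from 45.3, 0 and 0.91 CPM at stage 1 to 871, 9.87 and 6.79 CPM at stage 13, and Rsph3b from 33.7, 0 and 0.91 CPM to 863, 2.82 and 2.26 CPM. Mouse 1 alone carries the level of both. Without the mouse as a block their calls were lost (edgeR adjusted p = 0.166 for each), and without mouse 1 neither could be tested.

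Ccdc39 and Ccdc40 act as a pair in the ruler but did not move together early on. Ccdc39 (chr3:33812362-33844310) went from 3.48, 7.63 and 2.73 CPM at stage 1 to 459, 303 and 233 CPM at stage 13, a log2 fold change of 6.37 ± 0.39 (edgeR adjusted p = 5.17e-18). Ccdc40 (chr11:119228572-119265238) started higher, at 29, 20.3 and 34.6 CPM. It was at 5.83, 0 and 11.6 CPM at stage 7, below every mouse at stage 1 (-2.03; edgeR adjusted p = 0.00693), and then reached 140, 180 and 248 CPM at stage 13 (2.69 ± 0.26). The half-maximum was at stage 10 for Ccdc39 and stage 11 for Ccdc40, and Ccdc39 rose by 2.37 from stage 8 to 9.

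The 3 Spag genes encode proteins of the central apparatus, and all rose. Spag6 (Spag6l, chr16:16753016-16829456) went from 2.32, 5.09 and 8.19 CPM to 353, 492 and 530 CPM, a log2 fold change of 6.40 ± 0.36 (edgeR adjusted p = 3.44e-19), within its error of those of Ccdc39 and Dnahc7a, and 5.75 with stages from the even-numbered autosomes. Spag17 (chr3:99885406-100143322) went from 2.32, 12.7 and 14.6 CPM to 503, 447 and 388 CPM (5.48 ± 0.32), and its value was 4.87 without mouse 1 and 6.32 without mouse 3. Spag16 (chr1:69826970-70725132) went from 6.97, 10.2 and 10.01 CPM to 182, 207 and 234 CPM (4.56 ± 0.28). All 3 had separate ranges at the 2 stages. Spag6 and Spag17 rose by 1.96 and 1.78 from stage 8 to 9, and by 1.58 and 1.20 from stage 9 to 10. Spag16 was not called at the first of these steps, rose by 1.87 at the second, and rose again at each of the steps to stages 11 and 13.

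In the order of stages used here, the tektins were the latest role. Tekt1 (chr11:72344722-72362442) was the exception, going from 8.13, 12.7 and 16.4 CPM at stage 1 to 188, 311 and 355 CPM at stage 13 (4.49 ± 0.26), with a step of 2.71 from stage 8 to 9. Tekt2 went from 8.13, 2.54 and 6.37 CPM to 55.7, 84.6 and 76.9 CPM (3.48 ± 0.37), with its half-maximum at stage 12. Tekt3 (chr11:63061654-63094964) stood at 9.44, 8.91 and 12.5 CPM at stage 12 and at 41.0, 67.6 and 67.9 CPM at stage 13, with no overlap and a step of 2.44 (edgeR adjusted p = 9.76e-06). It was 1 of 7 genes that rose at this last step, where 3.87% of other genes rose; the others were Dnahc6, Dnahc10, Dnali1, Rsph6a, Ccdc40 and Spag16. From stage 1 to 13 Tekt3 rose by 5.03 ± 0.54 on the log2 scale. With stages set from the even-numbered autosomes the value was 1.95 (edgeR adjusted p = 0.014). The last of those stages is led by Mst1, as stage 12 is here, so this value is for another cluster. The cause of the lower value was not tested. Without mouse 3 the value of Tekt3 was 5.67. Tekt4 rose by 4.24 ± 0.71 and had its half-maximum at stage 13. Tekt5 had 75 UMIs, of which 80.0% came from mouse 3, and was not tested.

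The IFT-A genes, for return transport, were already measurable in spermatogonia. Ift140 (chr17:25016085-25099495) went from 54.6, 45.8 and 95.6 CPM at stage 1 to 441, 551 and 698 CPM at stage 13 (3.07 ± 0.21; edgeR adjusted p = 1.33e-16). Its mean had fallen to 40.0 CPM at stage 8, which was called lower than stage 1. Ift122 (chr6:115853470-115926699) went from 53.4, 53.4 and 87.4 CPM to 388, 383 and 503 CPM (2.70 ± 0.19), with its highest mean, 428 CPM, at stage 11. Ift43 (chr12:86082541-86162459) was below stage 1 at the most stages of the 37 genes. It stood at 45.3, 43.2 and 42.8 CPM at stage 1 and at 6.41, 7.17 and 14.9 CPM at stage 3, with no overlap (-2.09; edgeR adjusted p = 3.96e-06), was called lower at all 7 stages from 2 to 8, and reached 169, 147 and 187 CPM at stage 13.

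The IFT-B genes, for transport toward the tip, rose least and in a spread of stages. Ift74 (chr4:94614491-94693229), which with Ift81 forms the tubulin-binding part of IFT-B, had 16103 UMIs and went from 138, 125 and 204 CPM to 491, 558 and 738 CPM (1.92 ± 0.13; edgeR adjusted p = 6.49e-17). Its partner Ift81 rose from stage 4 to stage 5, from a mean of 45.2 to 127 CPM, and peaked later at 227 CPM. The half-maximum of the mean was at stage 5, where Sertoli markers were higher, against stage 6 for Ift74. In mice 1, 2 and 3 it was at stages 6, 5 and 5 for Ift81 and 9, 9 and 6 for Ift74. Ift52 (chr2:163017354-163046141) was the first gene called higher, at stage 2 (0.86; edgeR adjusted p = 0.0151). Its highest levels were at stage 7, at 137, 68.2 and 137 CPM, and at stage 13 it stood at 102, 104 and 114 CPM, against 30.2, 17.8 and 40.0 CPM at stage 1. Ift20, which is also found at the Golgi, had its half-maximum at stage 7.

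Ift80 and Ift88 had half-maxima at stage 9, as did Ift122, Ift172, Ift27 and Ift57. The half-maximum was at stage 7 for Ift80 in mouse 2 and for Ift88 in mouse 3. Ift80 (chr3:68892499-69004570) went from 30.2, 81.4 and 104 CPM to 392, 358 and 501 CPM (2.61 ± 0.24), and Ift88 (chr14:57424062-57517936) from 52.3, 48.3 and 79.2 CPM to 255, 247 and 315 CPM (2.15 ± 0.17). Both had separate ranges at the 2 stages. Ift27, a small GTPase of the complex, and Ift172 rose from stage 8 to 9 by 2.77 and 1.69 on the log2 scale. The remaining log2 changes from stage 1 to 13 were 2.55 for Ift27, 2.68 for Ift172, 2.80 for Ift57, 1.97 for Ift46, 1.93 for Ift20 and 1.76 for Ift81.

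Promoters were searched for 3 motifs because these genes moved together. RefSeq promoters (GRCm38.p6; 250 bases before to 50 bases after the start) were found for 38 of the 43 genes, and both strands were read. A gene was counted, here and below, if any of its promoters held the motif. The X-box, the site of RFX factors, was searched as GTNNCC and GNAAC with NNN between them. It occurred for 5 genes (13.2%): Dnahc17, Ift57, Spag16, Spag6 and Tekt4. It occurred for 2.49% of all 27025 genes with a promoter and for 3.67% of the other genes tested. Windows of 25 bases on each side of the match are shown for the 4 genes with a match before the start that RefSeq gives, with the X-box in capitals. Coordinates are chr11:118129340-118129403 on the minus strand for Dnahc17, chr16:49699182-49699245 on the plus strand for Ift57, chr1:69826842-69826905 on the plus strand for Spag16 and chr17:25471405-25471468 on the plus strand for Tekt4. Each is read along the strand of its gene, and in Ift57 the motif lies on the opposite strand, so its capitals are the reverse complement. The RefSeq starts used here differ from the GENCODE gene ends: the windows of Dnahc17 and Tekt4, and those of Spag6 shown next, lie within the gene spans of GENCODE.
Dnahc17: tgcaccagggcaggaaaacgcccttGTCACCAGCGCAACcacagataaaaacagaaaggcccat
Ift57: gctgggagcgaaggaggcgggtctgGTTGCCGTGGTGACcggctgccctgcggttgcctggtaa
Spag16: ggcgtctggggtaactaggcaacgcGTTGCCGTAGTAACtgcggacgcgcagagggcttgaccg
Tekt4: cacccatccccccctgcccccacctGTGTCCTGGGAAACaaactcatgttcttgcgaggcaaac

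The full cyclic AMP response element TGACGTCA, the site of CREM, occurred for 3 genes (7.9%): Dnahc6, Ift57 and Spag6. It occurred for 2.03% of all genes with a promoter and 3.82% of the other genes tested. The windows lie at chr6:73221774-73221831 on the minus strand for Dnahc6, chr16:49699107-49699164 on the plus strand for Ift57 and chr16:16829364-16829397 on the minus strand for Spag6, where the window ends at the RefSeq start. Capitals mark the element.
Dnahc6: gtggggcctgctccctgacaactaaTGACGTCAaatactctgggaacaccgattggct
Ift57: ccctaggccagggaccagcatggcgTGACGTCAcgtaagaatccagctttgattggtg
Spag6: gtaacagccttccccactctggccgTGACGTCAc

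The short MYB motif AACNGNC occurred for 25 of the 38 genes (65.8%), against 35.96% of all genes with a promoter and 38.39% of the other genes tested. It is shown for Spag6, which also holds both other motifs, where it occurs before the start at 2 places, in the windows chr16:16829389-16829445 and chr16:16829364-16829420 on the minus strand, which overlap each other and the response element window above. Capitals mark the MYB motif. These matches describe letters in a window and say nothing of binding, and no test of the shares was made.
Spag6, first: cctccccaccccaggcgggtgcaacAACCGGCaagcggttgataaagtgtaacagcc
Spag6, second: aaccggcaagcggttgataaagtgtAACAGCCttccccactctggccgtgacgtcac

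Of 13 tested transcription factor genes linked to cilia or to the meiotic program, 8 rose from stage 1 to stage 13, 4 fell and 1 did not pass, beside 37.0% of other genes rising and 39.2% falling. Rfx2, an X-box factor of spermatogenesis, went from 16.3, 45.8 and 58.3 CPM to 322, 444 and 442 CPM (log2 fold change 3.33). Rfx4 of the same family went from 4.65, 5.09 and 8.19 CPM to 119, 137 and 159 CPM (4.45), and its mean stepped from 14.5 CPM at stage 8 to 105 CPM at stage 9. Mybl1, the MYB factor of pachytene spermatocytes, had its highest mean, 90.1 CPM, at stage 6, the stage with the smallest sum in each mouse. Its values there, 99.4, 114.9 and 55.9 CPM, overlap those at stage 12 (84.3, 105.7 and 32.7 CPM). No test of stage 6 against the last stages was run. At stage 13 Mybl1 stood at 63, 83.1 and 31.4 CPM (3.72). Crem rose by 3.31, Sox30 by 3.19, Tcfl5 by 1.90, E2f4 by 1.39 and Rfx5 by 0.69. Rfx1 fell by 3.24, Rfx3 by 1.39, E2f5 by 2.60 and the X-linked Taf7l by 5.74 on the log2 scale, and Rfx7 had a value of 0.04 (edgeR adjusted p = 0.88). Foxj1, the master factor of motile cilia, and Trp73 did not pass the filter on low counts.

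**Figure D5:**
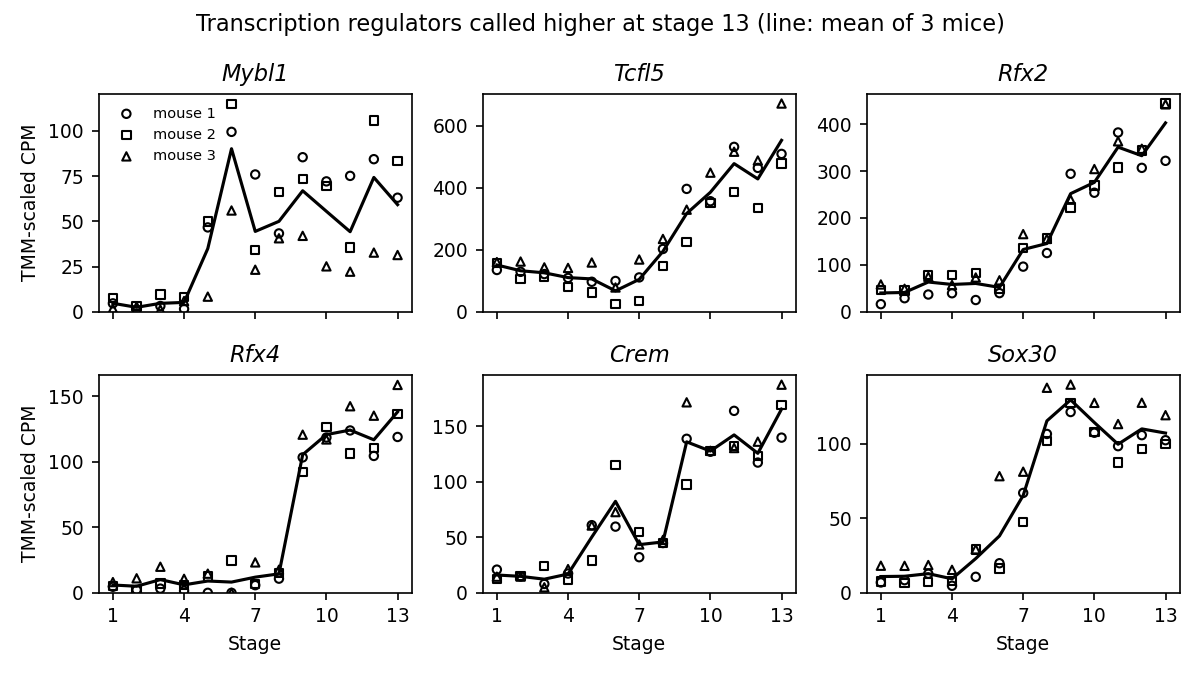
Levels of 6 regulator genes by stage (x axis, 1 to 13) in TMM-scaled CPM (y axis, a scale per gene), with 1 point per mouse and lines through the means. Rfx2 and Rfx4 are highest in the pachytene stages. The highest mean of Mybl1 is 90.1 CPM at stage 6, where the mice overlap those at stage 12.

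Other genes of the same structures, from lists assembled by function, mostly moved with the 43 genes. Among 12 further dynein arm, docking and nexin-dynein regulatory complex genes, 10 rose, with a median log2 change of 3.75, Dynll2 fell by 2.80, and Dynll1 had a value of 0.06. Of 14 factors that assemble dynein arms in the cytoplasm, 12 rose (median 3.30), among them Zmynd10, from a mean of 8.37 to 487 CPM, and Dnaaf1, from 40.7 to 932 CPM, while Heatr2 and Ruvbl1 did not pass. Of 11 central apparatus and microtubule inner protein genes, 10 rose (median 3.67), including Hydin at 2.35, and the X-linked Efhc2 fell by 3.51. Of 26 further IFT, motor and BBSome genes, 24 rose (median 2.19), including Wdr35 at 3.14, the kinesin gene Kif17 fell by 1.67, and Kif3a had a value of -0.47 (edgeR adjusted p = 0.108). These counts stand beside 37.0% of other genes rising and 39.2% falling in the same comparison.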

How the data were processed

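Expression was measured in single Dazl-GFP-positive testis cells of 3 mice by SORT-seq. Reads were mapped with BWA 0.7.10 to mm10, per the submitters' processing notes, and further steps are not given in the sources used here. The authors deposited UMI counts, read counts and estimated counts of transcripts (whose values follow UMI counts corrected for UMI collisions) per gene and well. UMI counts were the main measure. Depth per mouse was 16682671, 5866174 and 18032562 UMIs, with medians of 16275, 9809.5 and 14239 UMIs per kept well, and intervals on counts would cover counting error only. The columns are numbered wells of separate plates, so shared cell barcodes were not counted.

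Staging genes were 1500 variable genes on odd autosomes, leaving out the 43 genes and all listed genes. Mice were joined with Seurat 5.3.0 anchors (15 dimensions, 50 weight neighbours), and scanpy 1.11.5 gave 15 components, 15 neighbours, Leiden clusters (resolution 1.0) and diffusion pseudotime (5 components) from the cluster with most undifferentiated markers. Scrublet called 5 wells doublets. UMI counts were summed per mouse and stage, scaled by TMM and tested with edgeR 4.0.16 (R 4.3.3), quasi-likelihood, with stage and mouse as terms, at an adjusted p of 0.05; estimated counts were rounded first in their alternative. The script was tested on simulated data. The mouse is the same animal in every stage, and deviations of sums of the same mouse correlated at 0.578 on average (lowest 0.202). The average between mice was -0.256. Deviations were taken from the mean of the 3 mice at each stage, so the negative value between mice follows largely from the positive one. The gene set, the lists and the rule for left-out wells were chosen with earlier results of these data known. Genes described with values are the 3 with most UMIs in each role, the 10 with the largest rises and the 5 whose half-maximum stage differs most between mice; further genes, such as Rsph6a, Rsph9, Tekt4 and Ift27, were chosen after their values were seen. Gene positions are from GENCODE M21.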

Additional observations from a re-analysis of the deposited data

Results flagged for a closer look

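Axoneme and IFT transcripts also appeared in wells that no stage holds. In 472 wells below 1000 UMIs they made up 0.466% of UMIs (837 of 179485), where a count of 0 would allow up to 0.00167%. The share was 0.547%, 0.392% and 0.384% in mice 1, 2 and 3, and Rsph1 led with 142 UMIs, ahead of Ift74 with 66 and Dnahc8 with 65. In the 8 wells left out for spermatid markers the share was 0.265% (365 UMIs), with Rsph1 at 55 and Ift74 at 48 UMIs. In the 184 kept wells of the low-depth clusters it was 0.379% (1657 UMIs), with Rsph1 at 257, Ift74 at 150 and Dnahc8 at 140 UMIs. These shares are flagged because they lie outside the wells that the comparisons use.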

How the results depend on the processing

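The number of genes that rose from stage 1 to 13 was 34 to 39 under every alternative, with 0 falling in each: 35 of 37 with no replicate block, 34 of 34 without the gate-sorted library and 34 to 37 when 1 mouse was left out. The median half-maximum stage was 10 with each mouse left out, 9 with a 25% rule, 11 per ERCC spike-in UMI, and 7 by the first stage called higher; by that last measure 15 of 37 genes lay at stages 9 to 13, against 35 to 36 of those measured when 1 mouse was left out. Of 450 values of single genes, 448 kept direction and call, 0 reversed, and Rsph3a and Rsph3b lost theirs with no replicate block. In 34 the fold moved by over 1.5 times: 17 with read counts, 7 with stages from even autosomes, 8 with a mouse left out, 1 without the gate-sorted library and 1 with DESeq2 (3.84 for Rsph3b). Stages from even autosomes gave 1.78 for Ccdc40, 2.30 for Tekt2, 4.37 for Dnahc6 and 4.86 for Spag17. Their last stage is led by Mst1, as stage 12 is in the main order, and the cause of these values was not tested. The median of all genes shifted by -0.28 (library totals), -0.18 (median ratios), 0.18 (read counts) and 0.24 (no filter). Depth limits the lowest genes: Dnahc10 dropped out of 6 alternatives.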

Other observations

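Genes of centrioles and basal bodies, from which the flagellum grows, were split. Of 13 tested, 9 rose from stage 1 to 13, including Ccp110 at 3.23, Cep63 at 3.59 and Odf2 at 3.42 on the log2 scale. Cep152 fell by 0.98, and Ofd1 and Cetn2, both X-linked, fell by 4.68 and 5.60, while Cetn3 did not pass the test. In the same comparison 37.0% of other genes rose and 39.2% fell.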
